A study of Mus musculus with 12 samples.

Results

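The BCL2 family sets whether a lymphocyte keeps its mitochondria intact. Survival members (BCL2, BCL-XL and MCL1) hold the effectors BAX and BAK1 in check on the outer mitochondrial membrane. BH3-only members (BIM, PUMA, NOXA, BAD and BID) sense stress or lost growth signals and act against the survival members, and some of them also activate the effectors directly. Once the effectors open the membrane, cytochrome c leaves and switches on caspases. In T cells the balance between BCL2 and BIM is known for keeping naive cells alive under interleukin 7, and BCL-XL for the survival of activated cells.

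The family was followed through 10 genes: Bcl2, Bcl2l1 (which encodes BCL-XL), Mcl1, Bcl2l11 (BIM), Bbc3 (PUMA), Pmaip1 (NOXA), Bad, Bid, Bak1 and Bax. A gene was measured where a probe set of the array was annotated to it alone, and it was represented by the probe set with the highest mean over the 12 arrays. By this rule 9 of the 10 genes were measured, out of 18193 genes in all, through 29 probe sets out of 45037. Bax had no such probe set in the annotation used and was not analysed here. The number of probe sets was 6 for Mcl1, 5 each for Bcl2 and Bcl2l11, 4 for Bcl2l1, 3 for Bid, 2 each for Bad and Bak1, and 1 each for Bbc3 and Pmaip1.

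The 4 groups, each of 3 Affymetrix arrays, were PKD2-null cells with peptide, PKD2-null cells without peptide, wild-type cells with peptide and wild-type cells without peptide. PKD2, the product of Prkd2, is a serine/threonine kinase that the antigen receptor switches on through diacylglycerol. All 6 mice, 3 of each genotype, carried the P14 T cell receptor, a transgenic receptor for the viral peptide gp33-41 on MHC class I. Suspensions of their lymph node cells were kept in culture for 4 h, either with gp33-41 at 62.5 ng/ml or without it, so each mouse gave 1 array of each kind. The age and sex of the mice and the making of the null allele are not stated in the labels. The suspensions were not described as sorted, so in these bulk samples fewer cells of a type and less RNA per cell cannot be told apart.

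All signals are log2 values as deposited, on a scale whose lowest value was 2.427 and highest 15.07, and array medians differed little (4.67 to 4.72). All changes are differences of log2 signal with the limma standard error (SE). The precision is limited by the number of arrays, 3 per group. A gene is said to have risen, fallen or been called where limma's two-sided test had a Benjamini-Hochberg adjusted p under 0.05 over all 45037 probe sets. The targeted gene checked the labels: Prkd2 signals were 5.36 to 5.60 with peptide and 5.80 to 6.33 without peptide in PKD2-null cells, against 8.16 to 8.52 with peptide and 9.99 to 10.34 without in wild-type cells. The T cell markers, 7 of 8 measured, ran as means over the arrays from 9.265 (Cd3e) to 12.8 (Cd3d). Of the CD8 genes, Cd8a averaged 10.34 and Cd8b1 11.55. Of the CD4 T cell genes, Cd4 averaged 5.88 and Foxp3 5.38. Markers of other cells ran, as means over the arrays, from 3.80 to 4.88 for NK cells (2 of 3 measured), 3.48 to 6.21 for erythroid cells (3 of 4) and 3.20 to 8.13 for stroma and endothelium (5 of 5, the highest being Pecam1). They ran from 3.88 to 9.73 for myeloid and dendritic cells (9 of 10, the highest being Lyz2) and from 6.14 to 10.84 for plasma cells (4 of 4, the highest being Xbp1). B cell markers were also present, with 9 of 10 measured and means over the arrays from 5.24 (Pax5) to 12.22 (Ighm). Their mean level was 8.93 to 9.60 in PKD2-null cells with peptide, 9.61 to 10.30 in PKD2-null cells without peptide, 8.25 to 8.46 in wild-type cells with peptide and 9.12 to 9.22 in wild-type cells without peptide. The highest value of both PKD2-null groups came from mouse 2, whose T cell markers were the lowest of its groups (10.75 with peptide and 10.92 without). Its arrays stand apart from the others in this respect, and results that rest on them are given with and without them.

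Antigen changed 6 of the 9 measured genes in each genotype, and they were the same 6 and moved the same way. Bcl2, Bcl2l1 and Bid rose, and Bcl2l11, Bbc3 and Bad fell. The largest rises were those of Bcl2 in PKD2-null cells (3.59-fold) and of Bcl2l1 in wild-type cells (4.07-fold). Mcl1, Pmaip1 and Bak1 were not called in either genotype by their main probe sets. Of all 18193 genes, 31.5% were called with peptide against without in PKD2-null cells (12.5% higher and 19% lower) and 35.5% in wild-type cells (15.1% higher and 20.4% lower). These shares include dim genes, while the main probe sets of all 9 genes had a mean of at least 6. With only the 15676 probe sets of such a mean tested, 9682 were called in PKD2-null cells and 10685 in wild-type cells. Of the 9 genes, 6 and 7 were then called. The share of the family called was thus near that of the brighter probe sets. The median change over all genes was -0.02 in PKD2-null cells and 0.014 in wild-type cells. Among the 9 genes the median change was -0.16 in PKD2-null cells and 0.09 in wild-type cells. Signals with and without peptide did not overlap for 7 of the 9 genes in each genotype, where 41.5% of all genes did not overlap in PKD2-null cells and 46.7% in wild-type cells. The shares of all genes without overlap, here and below, include dim genes, and none was counted for brighter genes alone. The B cell markers moved with antigen too, with 5 of 9 called lower in PKD2-null cells and 7 of 9 in wild-type cells. Of the plasma cell markers, 3 of 4 were called lower in PKD2-null cells and 2 of 4 in wild-type cells. T cell markers were not steady either. Of 7 measured, 1 rose and 2 fell in PKD2-null cells, and 2 rose and 3 fell in wild-type cells. Cd8b1 fell by 1.11 in PKD2-null cells and 1.38 in wild-type cells, while Cd8a was called in neither. Foxp3 rose by 0.669 in PKD2-null cells (adjusted p = 0.027) and 0.865 in wild-type cells (adjusted p = 0.005), while Cd4 was called in neither. Among the stroma and endothelium markers, Pecam1 fell by 1.52 in PKD2-null cells and 1.49 in wild-type cells, but the others did not fall. Col1a1, Col3a1 and Cdh5 were called in neither genotype. Pdpn rose in PKD2-null cells (0.34, adjusted p = 0.027) and was not called in wild-type cells. The part of a shift in cell types in the changes below was not tested.

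**Figure D1:**
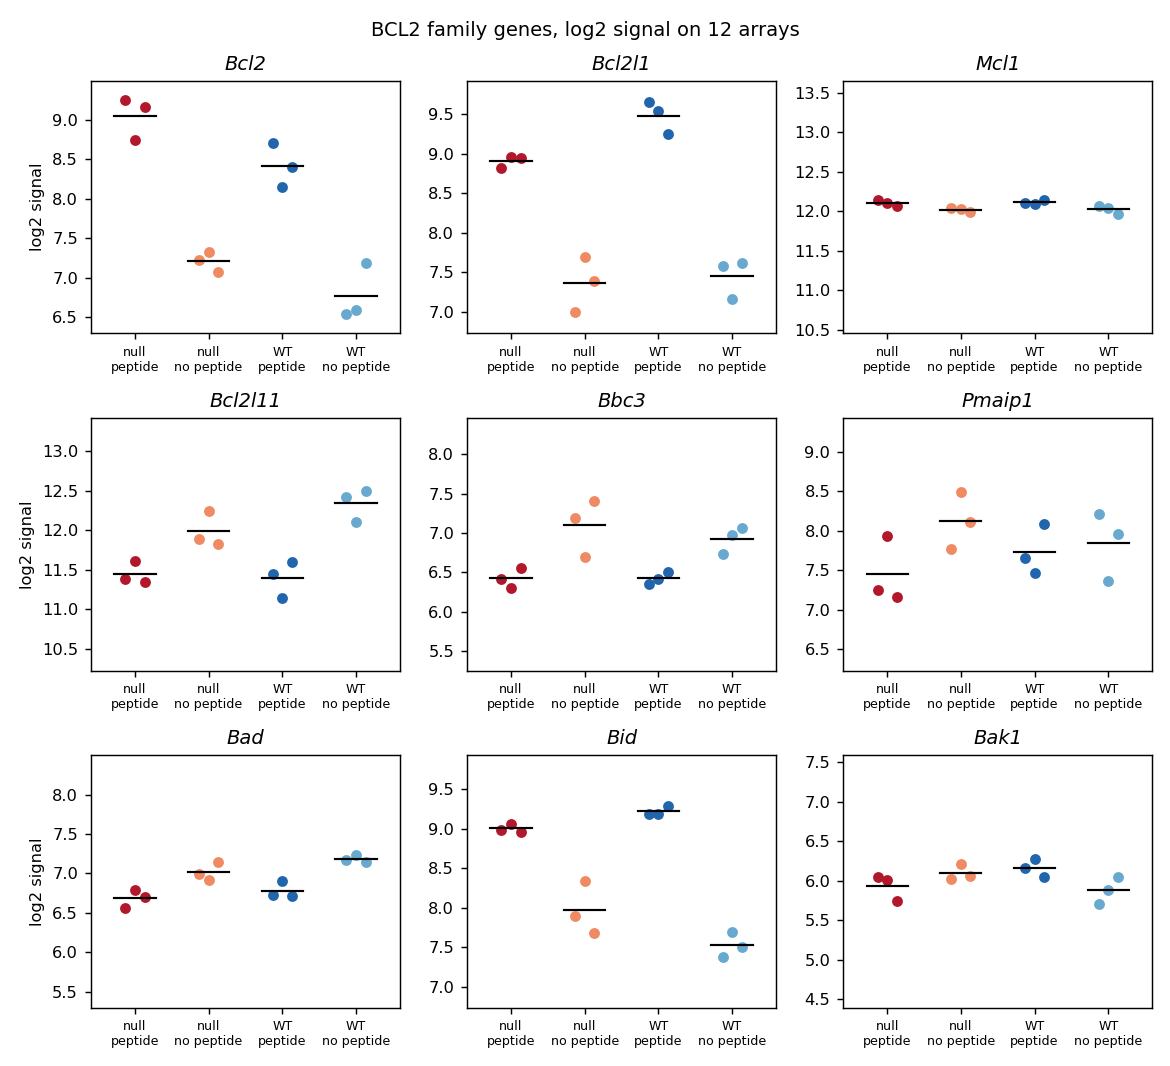
Log2 signal (vertical axis) of the 9 measured genes on the 12 arrays, in 4 groups: PKD2-null with and without peptide, then wild type (WT) with and without peptide. Each point is 1 mouse, black bars are group means, and the panels differ in their signal range. Bcl2, Bcl2l1 and Bid lie higher with peptide in both genotypes with no overlap, and Mcl1 stays within 11.96 and 12.14.

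Bcl2, the survival gene of resting lymphocytes, had signals of 9.25, 8.74 and 9.17 in PKD2-null cells with peptide, against 7.23, 7.33 and 7.07 without. In wild-type cells the signals were 8.70, 8.14 and 8.41 with peptide, against 6.54, 6.59 and 7.19 without. Every array with peptide lay above every array without it in both genotypes. The rise was 1.84 in PKD2-null cells (SE 0.19, 95% interval 1.43 to 2.26, adjusted p = 1.3e-05) and 1.65 in wild-type cells (SE 0.19, 95% interval 1.23 to 2.06, adjusted p = 2.2e-05). Among all probe sets of the array, 11% rose and 13.8% fell in PKD2-null cells, against 12.8% and 16.2% in wild-type cells. All 5 probe sets of Bcl2 rose, by 0.98 to 1.94 in PKD2-null cells and by 1.19 to 1.73 in wild-type cells. The order of the groups was PKD2-null with peptide, wild type with peptide, PKD2-null without peptide and wild type without peptide, and only the last pair overlapped. PKD2-null mouse 2 had the lowest signal with peptide in its group. Without its arrays the rise in PKD2-null cells was 2.06 (adjusted p = 5.4e-05).

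Bcl2l1, which encodes the survival protein BCL-XL, had signals of 8.82, 8.96 and 8.95 in PKD2-null cells with peptide, against 7.00, 7.70 and 7.38 without. The wild-type signals were 9.65, 9.54 and 9.25 with peptide, against 7.58, 7.16 and 7.62 without. Arrays with and without peptide were again fully apart, and those with peptide were also apart between genotypes, the PKD2-null signals being the lower. The order of the groups was wild type with peptide, PKD2-null with peptide, and then both groups without peptide, which overlapped. The rise was 2.92-fold in PKD2-null cells (1.55, SE 0.17, 95% interval 1.17 to 1.93, adjusted p = 2.4e-05) and 4.07-fold in wild-type cells (2.03, SE 0.17, 95% interval 1.65 to 2.40, adjusted p = 1.6e-06). Of the 4 probe sets 3 rose in both genotypes. The remaining one lay near the bottom of the scale (group means of 3.54 to 3.69) and was called in neither. Averaging all 4 probe sets of the gene gave smaller rises, of 0.87 in PKD2-null cells and 1.07 in wild-type cells.

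Mcl1, a short-lived survival protein that naive T cells depend on, had nearly equal signals on all arrays: 12.14, 12.11 and 12.07 in PKD2-null cells with peptide, against 12.04, 12.03 and 11.99 without. Wild-type signals were 12.11, 12.09 and 12.14 with peptide, against 12.07, 12.04 and 11.96 without. Arrays with peptide lay above those without in both genotypes, but the differences were 0.09 each (95% interval -0.06 to 0.24 in both, adjusted p = 0.45 in PKD2-null cells and 0.44 in wild-type cells). The other 5 probe sets did not move together. One of them rose, by 0.36 in PKD2-null cells (adjusted p = 0.0063) and 0.57 in wild-type cells (adjusted p = 0.00016). Another fell, by 0.30 in PKD2-null cells (adjusted p = 0.024) and 0.40 in wild-type cells (adjusted p = 0.0034). The other 3 had changes of -0.31 to -0.23 in PKD2-null cells and -0.34 to -0.19 in wild-type cells, of which 1 was called in each genotype. The probe sets of Mcl1 thus gave no single direction, and all neighbouring groups overlapped on the main one.

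Among the BH3-only genes, Bid differed from the rest in that it rose. BID is cut by caspase-8 and carries the signal of death receptors to mitochondria. Its signals were 8.99, 9.06 and 8.96 in PKD2-null cells with peptide, against 7.89, 8.33 and 7.68 without. Wild-type cells had 9.19, 9.19 and 9.29 with peptide, against 7.38, 7.69 and 7.50 without. The highest array without peptide was that of PKD2-null mouse 2, still below all arrays with peptide. The order was wild type with peptide, PKD2-null with peptide, PKD2-null without peptide and wild type without peptide, and the last pair alone overlapped. The rise was 2.05-fold in PKD2-null cells (1.04, SE 0.14, adjusted p = 0.00011) and 3.25-fold in wild-type cells (1.70, SE 0.14, adjusted p = 1.2e-06). Without PKD2-null mouse 2 the rise in PKD2-null cells was 1.19 (adjusted p = 4.4e-05). The other 2 probe sets rose in wild-type cells, by 1.61 and 1.06, and had changes of 0.89 (adjusted p = 0.00076) and 0.34 (adjusted p = 0.15) in PKD2-null cells.

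Bcl2l11, which encodes BIM, the main killer of T cells that lose cytokine or end a response, fell with antigen. Its signals were 11.38, 11.61 and 11.34 in PKD2-null cells with peptide, against 11.89, 12.24 and 11.83 without. Signals in wild-type cells were 11.45, 11.14 and 11.60 with peptide, against 12.42, 12.11 and 12.50 without. Wild type without peptide was the highest group, followed by PKD2-null without peptide, PKD2-null with peptide and wild type with peptide, and among neighbours in this order the PKD2-null groups alone did not overlap. The fall was 1.46-fold in PKD2-null cells (-0.54, SE 0.15, adjusted p = 0.017) and 1.93-fold in wild-type cells (-0.95, SE 0.15, adjusted p = 0.00028). Of the 5 probe sets, 3 fell in PKD2-null cells and 4 in wild-type cells. The exception in both was a probe set with changes of 0.19 in PKD2-null cells (adjusted p = 0.53) and 0.20 in wild-type cells (adjusted p = 0.47). The fall was thus not seen by every probe set. In PKD2-null cells the call depended on single arrays. The adjusted p was 0.073 without the array of mouse 2 that had no peptide, 0.057 and 0.068 without the peptide arrays of mice 1 and 3, and 0.079 and 0.066 without both arrays of mice 1 and 3, with changes of -0.57 to -0.42. It was 0.1 (-0.32) for the mean over all 5 probe sets.

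Bbc3, which encodes PUMA, a death inducer that p53 and FOXO factors are known to switch on, also fell. Its single probe set had signals of 6.42, 6.30 and 6.56 in PKD2-null cells with peptide, against 7.19, 6.70 and 7.41 without. In wild-type cells they were 6.36, 6.42 and 6.51 with peptide, against 6.73, 6.98 and 7.06 without. All arrays with peptide lay below all arrays without it, and the genotypes overlapped at both levels. The fall was 1.59-fold in PKD2-null cells (-0.67, SE 0.16, adjusted p = 0.0058) and 1.41-fold in wild-type cells (-0.49, SE 0.16, adjusted p = 0.03). In PKD2-null cells the call was lost without mouse 1 (-0.63, adjusted p = 0.063). In wild-type cells it was the least certain of the 6 calls. There the adjusted p was 0.051 to 0.1 when any wild-type array was left out other than that of mouse 1 without peptide, and 0.067, 0.16 and 0.13 without mice 1, 2 and 3. The changes then ran from -0.55 to -0.43. It was also 0.053 without PKD2-null mouse 1 and 0.083 after quantile normalization (-0.39).

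Bcl2l11 and Bbc3 were the members with a promoter window that held the FOXO motif GTAAACA, and these windows are shown because Foxo1 and Foxo3, described with the regulators, also fell with antigen. The windows are those of RefSeq on build GRCm38.p6, from 250 bases before to 50 bases after an annotated start. There were 14 of them for 8 of the measured genes. Capitals mark the 7 bases of the motif, which reads GTAAACA in the Bcl2l11 window and stands on the other strand, as TGTTTAC, in the Bbc3 window. Both sequences are given 5′ to 3′ on the plus strand, chr2:128125788-128126087 for Bcl2l11 and chr7:16310011-16310310 for Bbc3.
Bcl2l11: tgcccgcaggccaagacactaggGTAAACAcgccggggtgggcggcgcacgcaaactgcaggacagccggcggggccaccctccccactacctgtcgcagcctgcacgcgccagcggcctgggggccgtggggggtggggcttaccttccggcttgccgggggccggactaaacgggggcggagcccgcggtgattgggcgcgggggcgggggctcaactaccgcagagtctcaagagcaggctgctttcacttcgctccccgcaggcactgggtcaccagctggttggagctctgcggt
Bbc3: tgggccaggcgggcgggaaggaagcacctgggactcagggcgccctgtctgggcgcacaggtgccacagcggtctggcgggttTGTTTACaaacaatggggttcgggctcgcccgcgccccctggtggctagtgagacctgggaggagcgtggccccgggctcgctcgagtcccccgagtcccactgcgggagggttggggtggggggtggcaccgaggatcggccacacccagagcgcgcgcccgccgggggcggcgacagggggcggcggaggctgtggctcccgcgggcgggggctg
The motif began 227 bases before the start in Bcl2l11 and 167 bases before it in Bbc3. On either strand GTAAACA was in 2 of the 14 windows, and in 3.65% of the 32851 windows of all genes. The E-box CACGTG was in 1 of the 14 (Bbc3) and 7.15% of all windows, and the AP-1 motif TGANTCA in 0 of the 14 and 7.81%. The kappaB motif, searched by its degenerate consensus, was in 2 of the 14 (Bcl2l1 and Bbc3) and 8.46%. A pair of Bbc3 windows overlap each other, the kappaB match of Bbc3 stands on both strands at nearly the same place, and no window of a member held more than 1 kind of motif. These are matches of letters, not of binding, and a part of FOXO factors in the falls of Bcl2l11 and Bbc3 was not tested.

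Bad, whose protein binds BCL-XL and BCL2 when growth signals that keep it phosphorylated are lost, fell slightly. Its signals were 6.56, 6.79 and 6.70 in PKD2-null cells with peptide, against 6.99, 6.91 and 7.14 without. Those of wild-type cells were 6.72, 6.91 and 6.72 with peptide, against 7.17, 7.23 and 7.15 without. The order was wild type without peptide, PKD2-null without peptide, wild type with peptide and PKD2-null with peptide, and the last pair alone overlapped. The fall was 1.26-fold in PKD2-null cells (-0.33, SE 0.09, adjusted p = 0.019) and 1.32-fold in wild-type cells (-0.40, SE 0.09, adjusted p = 0.0046). The second probe set fell further, by 1.00 in PKD2-null cells (adjusted p = 9.5e-06) and 0.81 in wild-type cells (adjusted p = 3.6e-05). The call of the main probe set in PKD2-null cells did not hold in several settings. Its adjusted p was 0.082 without the array of mouse 3 that had no peptide, 0.086 without the peptide array of mouse 1, 0.13 and 0.15 without mice 1 and 3, 0.096 after quantile normalization and 0.053 with only the 6 PKD2-null arrays fitted, at changes of -0.33 to -0.26.

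Pmaip1, which encodes NOXA, the BH3-only protein that opposes MCL1, was the most scattered member. Its single probe set had signals of 7.25, 7.93 and 7.17 in PKD2-null cells with peptide, against 7.77, 8.49 and 8.11 without. In wild-type cells they were 7.65, 7.46 and 8.08 with peptide, against 8.22, 7.37 and 7.96 without. The groups overlapped within both genotypes, with mouse 2 the highest in both PKD2-null groups. The change was -0.67 in PKD2-null cells (SE 0.26, 95% interval -1.24 to -0.10, adjusted p = 0.089) and -0.12 in wild-type cells (SE 0.26, 95% interval -0.69 to 0.46, adjusted p = 0.82). With the mouse as a replicate block the change in PKD2-null cells was called (-0.67, adjusted p = 0.0055), since the signal was lower with peptide in each of the 3 mice, by 0.52, 0.56 and 0.94. It was also called without the peptide array of mouse 2 (-0.91, adjusted p = 0.023), but not without both arrays of that mouse (-0.73, adjusted p = 0.073).

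Bak1, the effector that was measured, was not called. Its signals were 6.04, 6.01 and 5.75 in PKD2-null cells with peptide, against 6.02, 6.21 and 6.06 without. In wild-type cells they were 6.16, 6.27 and 6.05 with peptide, against 5.71, 5.88 and 6.05 without. All neighbouring groups overlapped. The change was -0.16 in PKD2-null cells (SE 0.11, adjusted p = 0.4) and 0.28 in wild-type cells (SE 0.11, 95% interval 0.04 to 0.53, adjusted p = 0.085). The wild-type change was called after quantile normalization (0.38, adjusted p = 0.031), with dim probe sets left out (0.28, adjusted p = 0.041), without the array of mouse 3 that had no peptide (0.37, adjusted p = 0.036) and without both arrays of that mouse (0.43, adjusted p = 0.034). The second probe set had changes of 0.08 in PKD2-null cells and 0.04 in wild-type cells.

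**Figure D2:**
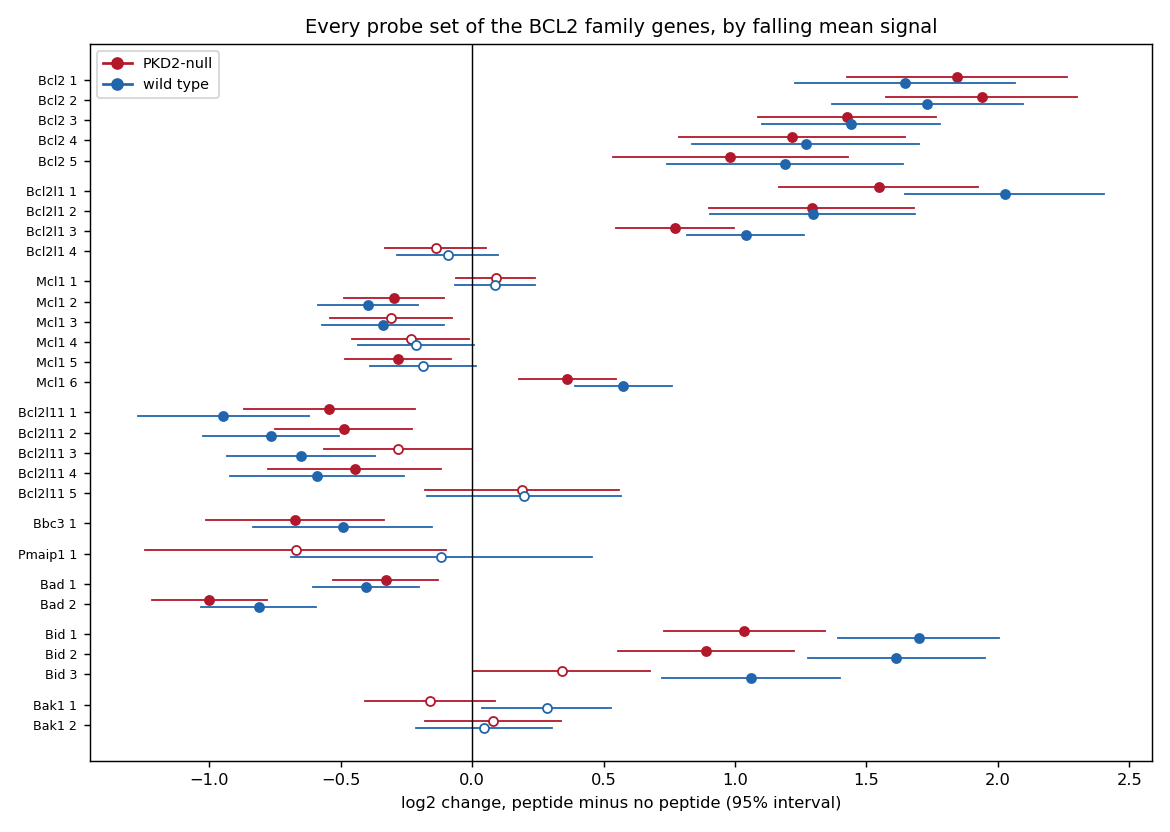
Log2 change with peptide against without (horizontal axis, bars are 95% intervals) for all 29 probe sets of the 9 genes, numbered within a gene from the highest to the lowest mean signal. Red is PKD2-null and blue wild type, and filled points were called. All 5 Bcl2 probe sets lie right of 0, while those of Mcl1 lie on both sides.

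The genotype comparisons asked whether the family was set differently in cells that lack PKD2. Without peptide limma called 0 of the 9 genes, against 0.044% of all genes. An unadjusted p under 0.05, for which no share of all genes was counted, was found for 3 of the 9. These were Bid (0.45 higher in PKD2-null cells, SE 0.14, 95% interval 0.14 to 0.75, adjusted p = 0.37), Bcl2 (0.43, SE 0.19, adjusted p = 0.54) and Bcl2l11 (-0.36, SE 0.15, adjusted p = 0.51). Without PKD2-null mouse 2 the differences were 0.26 for Bid, 0.37 for Bcl2 and -0.48 for Bcl2l11. By the main probe sets, only the Bad signals did not overlap between genotypes without peptide, being 6.91 to 7.14 in PKD2-null cells and 7.15 to 7.23 in wild-type cells. This is 1 of 9 genes, where 16.4% of all genes did not overlap. The second Bad probe set was apart in the opposite direction, at 6.51 to 6.59 in PKD2-null cells and 6.32 to 6.46 in wild-type cells. The 2 probe sets of Bad thus gave no single direction between genotypes.

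With peptide limma called 0 of the 9 genes, against 1.64% of all genes. An unadjusted p under 0.05, again with no share of all genes counted, was found for 2 of the 9. The first was Bcl2, 1.55-fold higher in PKD2-null cells (0.63, SE 0.19, 95% interval 0.21 to 1.05, adjusted p = 0.15). The second was Bcl2l1, 1.49-fold lower (-0.57, SE 0.17, 95% interval -0.95 to -0.20, adjusted p = 0.15). The 3 signals of each genotype were apart for both genes, for Bcl2 in the upward and for Bcl2l1 in the downward direction. Bid and Bak1 signals were also apart, PKD2-null being the lower, with differences of -0.22 and -0.23 (adjusted p = 0.5 and 0.36). The second Bak1 probe set overlapped between genotypes, with a difference of 0.04. In all, 4 of 9 genes did not overlap, where 23.8% of all genes did not. Every probe set of Bcl2 was higher in PKD2-null cells with peptide, by 0.27 to 0.71, and 0 of the 5 were called, against 1.18% of all probe sets. The smallest adjusted p among them was 0.068. For Bcl2l1 the other 3 probe sets differed by -0.19 to -0.05. Without PKD2-null mouse 2 the Bcl2 difference was 0.79 (adjusted p = 0.07) and the Bcl2l1 difference -0.60 (adjusted p = 0.1).

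**Figure D3:**
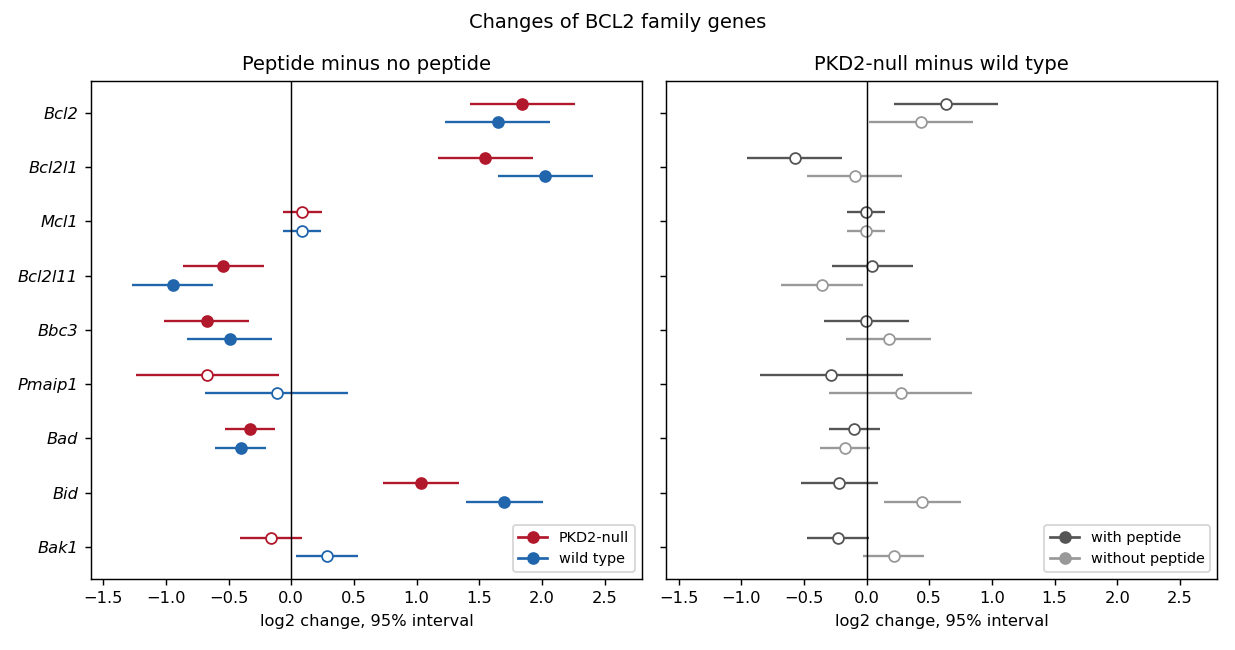
Log2 changes of the 9 genes with 95% intervals (horizontal axes). On the left, peptide against no peptide in PKD2-null (red) and wild-type (blue) cells, and on the right, PKD2-null against wild type with (dark grey) and without peptide (light grey). Filled points were called, which holds for 6 genes in each genotype on the left and for 0 on the right.

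Beside these genotype values stand those of the cell markers. All 9 B cell markers were higher in PKD2-null cells with peptide, by 0.04 to 1.45 with 3 called, and all 9 without peptide, by 0.31 to 1.01 with 0 called. Of the 4 plasma cell markers, Sdc1 was higher in PKD2-null cells with peptide (1.26, adjusted p = 0.011). Mzb1 had a difference of 0.89 with peptide (adjusted p = 0.16) and Jchain one of 0.83 (adjusted p = 0.47), while Xbp1 had one of -0.26 (adjusted p = 0.29). Without peptide the differences of the 4 ran from -0.02 to 1.05 with 0 called. The 9 myeloid and dendritic cell markers had a median difference of 0.08 with peptide and 0.35 without, with 0 called, and the erythroid gene Alas2 had one of -2.43 with peptide and -2.82 without, also not called. The 7 T cell markers had a median difference of -0.13 with peptide and -0.003 without, with 0 called. Foxp3 had a difference of 0.34 with peptide and 0.54 without, and Cd4 one of 0.09 with peptide and -0.04 without, none of them called. The part of these cells in the genotype differences of the family was not tested.

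The size of the antigen response was then compared between genotypes. The difference of the 2 responses was called by limma for 0 of the 9 genes, against 0.0055% of all genes. In 2 of the 9 the unadjusted p was under 0.05, a level at which no share of all genes was counted. Bid had the smallest p (difference -0.66, SE 0.20, 95% interval -1.10 to -0.23, adjusted p = 0.54). Bak1 had a difference of -0.44 (SE 0.16, 95% interval -0.79 to -0.09, adjusted p = 0.63) by its main probe set. The second Bak1 probe set did not share it, with changes of 0.08 in PKD2-null cells and 0.04 in wild-type cells. Bcl2l11 had a difference of 0.40 (SE 0.21, 95% interval -0.06 to 0.86, adjusted p = 0.75), Bcl2l1 one of -0.48 (95% interval -1.01 to 0.06, adjusted p = 0.74) and Bcl2 one of 0.20 (95% interval -0.39 to 0.79, adjusted p = 0.93). With the mouse as a replicate block the adjusted p was 0.22 for Bid, 0.25 for Bcl2l11 and 0.35 for Bak1.

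Mouse by mouse, Bid was higher with peptide by 1.09, 0.73 and 1.29 in the PKD2-null mice, against 1.81, 1.50 and 1.78 in the wild-type mice. Bcl2l11 was changed by -0.51, -0.63 and -0.49 in the PKD2-null mice, against -0.97, -0.97 and -0.90 in the wild-type mice. For both genes the 3 PKD2-null mice lay nearer to 0 than all 3 wild-type mice. The mean response in PKD2-null cells was 61% of that in wild-type cells for Bid and 57.4% for Bcl2l11. The level without peptide enters these shares. PKD2-null cells differed from wild type in Bcl2l11 by -0.36 without peptide and 0.05 with it. In Bid they differed by 0.45 without peptide and -0.22 with it, and none of these differences was called. Responses of the other 7 genes overlapped between genotypes. This makes 2 of 9 genes without overlap, where 18.5% of all genes had none. All 3 probe sets of Bid had differences between the responses of -0.72 to -0.66, whereas those of Bcl2l11 ran from -0.01 to 0.40. Without PKD2-null mouse 2, which had the smallest Bid response, the Bid difference was -0.51 (adjusted p = 0.55).

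**Figure D4:**
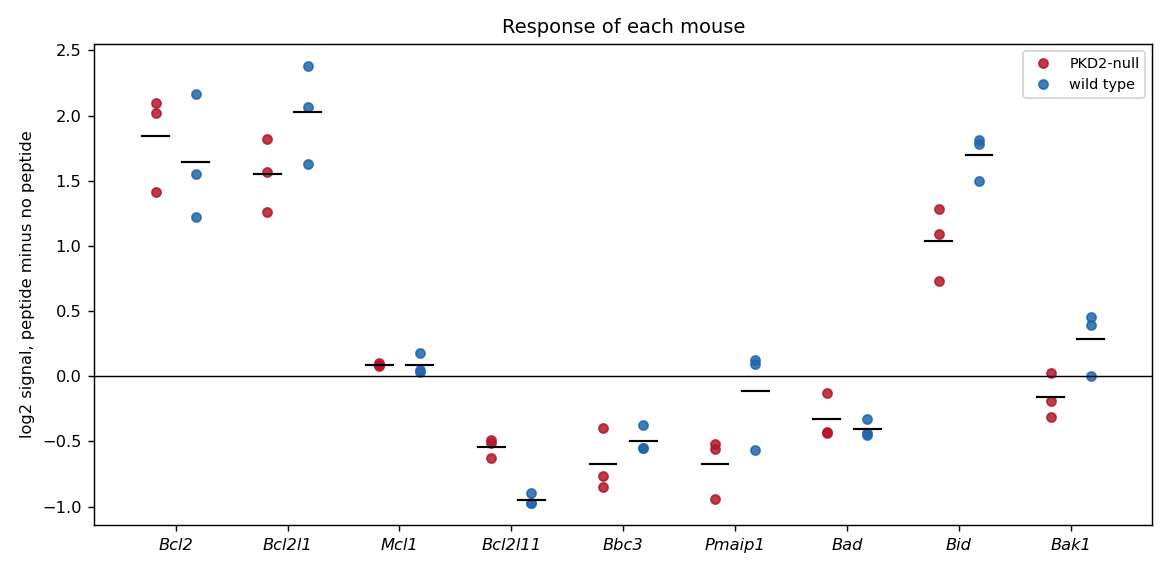
Change in log2 signal with peptide against without (vertical axis) in each mouse, PKD2-null in red left of wild type in blue, with bars for the mean of 3 mice. The PKD2-null and wild-type points are separate for Bid (0.73 to 1.29 in PKD2-null and 1.50 to 1.81 in wild-type mice) and Bcl2l11 (-0.63 to -0.49 in PKD2-null and -0.97 to -0.90 in wild-type mice).

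Further genes of the pathway were taken from 3 lists, and the shares of all genes called, dim ones included, give the background for their counts. With antigen the share called was higher among brighter probe sets, as given above. Pim1, Stat5a, Stat5b, Foxo1, Foxo3, Diablo, Xiap, Birc2, Birc3 and Birc5 were chosen after their values were seen. So were the values of Ddit3, Casp6 and Cflar in the genotype where they were not among the 4 largest changes of their list. Among the other BCL2 relatives, 10 of 14 were measured, and with peptide 0 rose and 3 fell in each genotype, with a median change of -0.14 in PKD2-null cells and -0.12 in wild-type cells. Bmf, a BH3-only gene, had changes of -0.82 in PKD2-null cells (adjusted p = 0.025) and -1.38 in wild-type cells (adjusted p = 0.00069). Its main probe set carries the ending of sets that can bind more than 1 transcript, and without such sets Bmf changed by -0.13 in PKD2-null cells and -0.14 in wild-type cells and was not called. Bcl2l13, also of the family, fell by 0.46 in PKD2-null cells and 0.78 in wild-type cells. Bcl2l12 fell by 0.40 in PKD2-null cells and 0.56 in wild-type cells. In PKD2-null cells the Bmf call was lost without the array of mouse 2 or 3 that had no peptide, without the peptide array of mouse 1 or 3, without both arrays of mouse 2 or 3, and after quantile normalization (adjusted p = 0.052 to 0.16). The Bcl2l12 call was lost there without the array of mouse 2 that had no peptide, the peptide array of mouse 1, or both arrays of either mouse, and after quantile normalization (adjusted p = 0.063 to 0.091). The Bcl2l13 call was lost there without both arrays of mouse 1 or of mouse 3 and for the mean over its probe sets (adjusted p = 0.05 to 0.078).

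Of the caspases, apoptosome genes and their inhibitors, 16 of 18 were measured, and 3 rose and 8 fell in each genotype. The genes that rose were Cycs, which encodes cytochrome c (by 1.17 in PKD2-null cells and 1.26 in wild-type cells), the caspase-8 inhibitor gene Cflar (0.75 in PKD2-null cells and 1.00 in wild-type cells) and Diablo, an antagonist of caspase inhibitors (0.43 in PKD2-null cells and 0.65 in wild-type cells). Casp9, the initiator caspase of the apoptosome, fell by 1.23 in PKD2-null cells (adjusted p = 6.4e-06) and 1.70 in wild-type cells (adjusted p = 2.7e-07). Apaf1, the scaffold of the apoptosome, fell by 0.78 in PKD2-null cells and 0.94 in wild-type cells, and the executioner gene Casp6 by 0.83 in PKD2-null cells and 0.92 in wild-type cells. Among inhibitors of caspases, Xiap fell by 0.62 in PKD2-null cells and 0.88 in wild-type cells, and Birc2 by 0.62 in PKD2-null cells and 0.73 in wild-type cells. Birc3 and Birc5 of this list were called in neither genotype. Birc3 changed by -0.30 in PKD2-null cells (adjusted p = 0.053) and -0.13 in wild-type cells (adjusted p = 0.41). Birc5 changed by -0.73 in PKD2-null cells (adjusted p = 0.2) and 0.02 in wild-type cells (adjusted p = 0.98). With peptide Casp9 was the 1 gene of this list called between genotypes, 0.66 higher in PKD2-null cells (SE 0.12, adjusted p = 0.023). That call was lost without the peptide array of PKD2-null mouse 1 or of wild-type mouse 2 or 3, or without both arrays of PKD2-null mouse 1 or of any wild-type mouse (adjusted p = 0.063 to 0.13), and for the mean over all its probe sets (0.20, adjusted p = 0.32). Diablo was not called either for such means of its response to antigen (0.26 in both genotypes, adjusted p = 0.058 in PKD2-null cells and 0.053 in wild-type cells), nor was Xiap in PKD2-null cells (-0.215, adjusted p = 0.058).

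Of the regulators of BCL2 family genes or proteins, 17 of 18 were measured, and 4 rose and 4 fell in PKD2-null cells while 4 rose and 5 fell in wild-type cells. Il2ra, the receptor chain through which interleukin 2 sustains activated cells, rose by 3.99 in PKD2-null cells and 4.51 in wild-type cells. Myc, a driver of cell growth, rose by 3.60 in PKD2-null cells and 4.02 in wild-type cells. Cdkn1a, a p53 target, rose by 1.58 in PKD2-null cells and 2.61 in wild-type cells, and the survival kinase gene Pim1 by 0.67 in PKD2-null cells and 0.65 in wild-type cells. Il7r, the receptor that maintains BCL2 in naive cells, fell by 2.59 in PKD2-null cells and 2.41 in wild-type cells. Stat5b, which acts below both receptors, fell by 1.19 in PKD2-null cells and 1.44 in wild-type cells. Its relative Stat5a was called in neither, with changes of 0.31 in PKD2-null cells (adjusted p = 0.064) and -0.02 in wild-type cells (adjusted p = 0.92). The products of the transcription factor genes Foxo1 and Foxo3 are known to switch on Bcl2l11 and Bbc3. Foxo1 fell by 0.97 in PKD2-null cells and 1.05 in wild-type cells, and Foxo3 by 0.91 in PKD2-null cells and 1.37 in wild-type cells. Ddit3, a stress factor that lowers BCL2, changed by -0.28 in PKD2-null cells (adjusted p = 0.064) and fell by 0.84 in wild-type cells.

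With peptide, 3 of these regulators were called between genotypes. Cdkn1a was lower in PKD2-null cells (-0.93, SE 0.16, adjusted p = 0.019), as was Il2ra (-0.63, SE 0.13, adjusted p = 0.038), and Ddit3 was higher (0.53, SE 0.10, adjusted p = 0.032). The 3 calls were lost together without the peptide array of PKD2-null mouse 1 (adjusted p = 0.076 to 0.15), PKD2-null mouse 3 (0.066 to 0.13) or wild-type mouse 3 (0.078 to 0.12), and without both arrays of PKD2-null mouse 1 (0.11 to 0.16), PKD2-null mouse 3 (0.053 to 0.14), wild-type mouse 1 (0.056 to 0.095) or wild-type mouse 3 (0.083 to 0.13). Among the same 6 arrays fitted alone, Ddit3 had an adjusted p of 0.12 and Il2ra one of 0.08. Without peptide limma called 0 genes of the 3 lists. In 1 gene, of the caspase list, the unadjusted p was under 0.05, a level at which no share of all genes was counted.

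**Figure D5:**
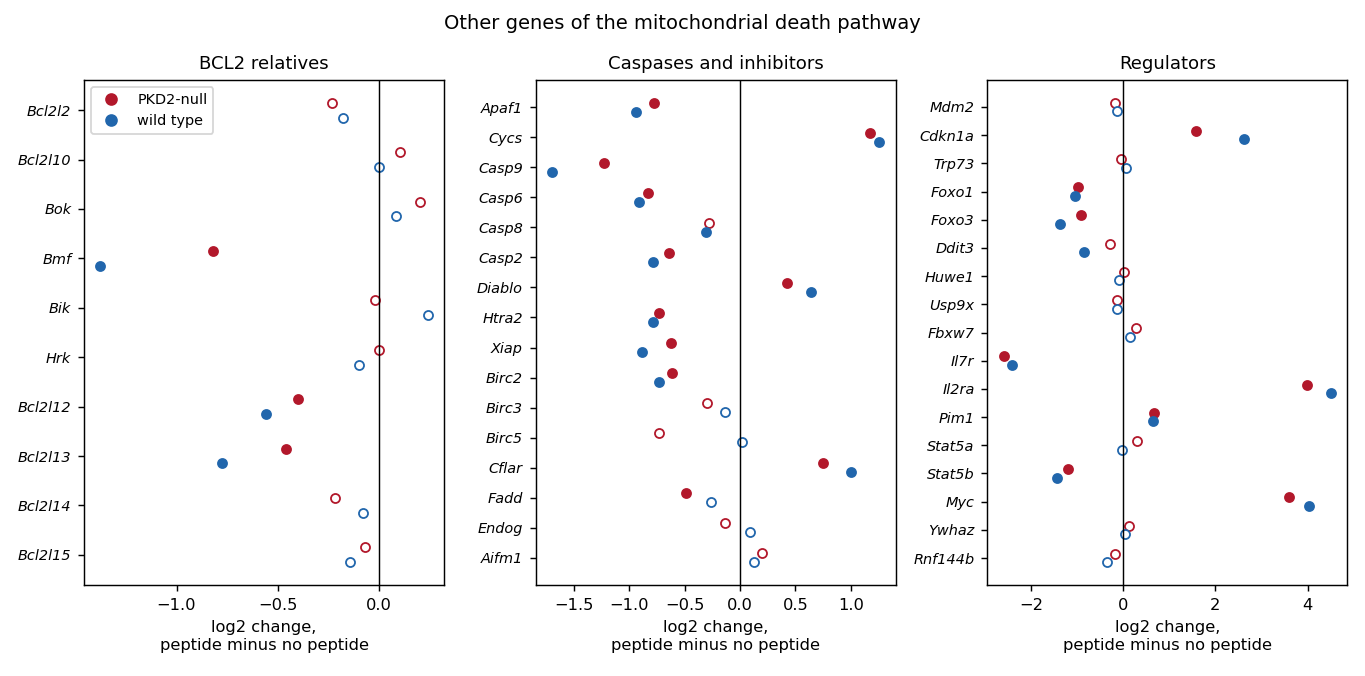
Log2 change with peptide against without (horizontal axes) of the measured genes in 3 lists: other BCL2 relatives, caspases with apoptosome genes and inhibitors, and regulators. Red is PKD2-null and blue wild type, filled points were called, and the axes differ in range. Il2ra and Myc lie at 3.60 to 4.51 and Il7r at -2.59 and -2.41.

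The genes with profiles most like those of the family were found from the root mean square difference of mean-centred log2 signals over the 12 arrays, among 8477 other genes. For Bcl2 they were Mmd, Nab2 and Hsd17b7 (differences of 0.22 to 0.24, where Bcl2 itself had an SD of 0.98). For Bcl2l1 they were Dusp5, Stap1 and Slc41a1 (0.15 to 0.19, SD 0.98), and for Bid they were Btla, Ruvbl2 and Prmt7 (0.12 to 0.13, SD 0.76). For Bcl2l11 they were Gpr132, Pacc1 and Tmem30a (0.11 to 0.14, SD 0.45), for Bbc3 Cnnm3, Lrrc1 and Mief2 (0.09 to 0.11, SD 0.36), and for Bad Chchd7, Pdcl3 and Tbcd (0.08, SD 0.22). Mcl1, with an SD of 0.06, was nearest to genes that hardly moved, namely Mrps18c, Rpl35 and Rpl7a (0.02 to 0.04). Pmaip1 was nearest to Tmem64, C9orf72 and Fcer1g (0.19 to 0.22, SD 0.41), and Bak1 to Wdr54, Cnpy3 and Mlec (0.11, SD 0.17). Such likeness describes these 12 arrays, and no gene in the lists of nearest genes was itself a member.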

How the data were processed

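RNA of 12 lymph node cell cultures from 6 mice was measured on Affymetrix arrays, 1 array per culture. The deposited log2 values, 1 per probe set and array, had been made by the authors with Affymetrix Expression Console 1.1, per the submitters' processing notes. The summary and normalization steps are not given in the sources used here. Changes were therefore taken within a probe set. Levels of different probe sets were used to choose the main probe set of a gene, to describe cell markers and to point out dim probe sets. They do not measure the relative amounts of different transcripts. Of 45101 probe sets, 64 controls were left out and 45037 were tested. GEO's platform annotation gave 1 symbol to 34945 of them, several to 932 and none to 9160, and only probe sets with 1 symbol were named. No 2 arrays were identical, and the lowest correlation within a group was 0.991. No value column was left unmapped (0 columns).

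A group-means model over all 12 arrays was fitted with limma 3.58.1 in R 4.3.3 (lmFit, contrasts.fit and eBayes, 8 residual and 4.18 prior degrees of freedom), with Benjamini-Hochberg adjustment over all probe sets within each of 5 comparisons and a threshold of 0.05. Replicates were separate mice, and their number in the labels pairs the 2 arrays of a mouse. The deviations of an array from its group mean correlated at 0.116 to 0.577 with those of the other array of its mouse, and at most 0.129 with those of arrays of other mice. Deviations from a group mean cancel out within the group, so a high value for the own mouse by itself lowers those for other mice. The main fit had no block, and a fit with the mouse as a replicate block was an alternative, as were quantile normalization, median centring, a filter on dim probe sets (mean under 6), array weights, trended robust moderation, means over the probe sets of a gene, leaving out probe sets with x_at or s_at endings, fitting only the arrays compared, and leaving out each array or mouse. The fit was tested on simulated data with known changes.

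The members and the 3 pathway lists were chosen with earlier results of these data known. Every member was named, as were, from each list and comparison, the 4 called genes with the largest changes. Genes of like profile were the 3 nearest among genes with a mean of at least 6. Promoter sequences came from RefSeq (GRCm38.p6). No protein sequence was used here.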

Additional observations from a re-analysis of the deposited data

How the results depend on the processing

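No called change of a member turned its direction under any of the 27 alternatives tried (26 for the difference of the responses). Of 243 alternative values of the 9 genes, 228 stayed on their side of the threshold for stimulation in PKD2-null cells (13 lost a call and 2 gained one) and 229 in wild-type cells (10 lost and 4 gained), and all 243 did so in each genotype comparison, as did 234 for the difference of the responses. With the mouse as a replicate block, the Pmaip1 fall in PKD2-null cells was called (adjusted p = 0.0055), and no other call of a member changed. The number of members called, when an array or a mouse was left out, ranged from 3 to 7 in PKD2-null cells, with 3 without PKD2-null mouse 1, and from 5 to 6 in wild-type cells, and was 0 to 0 in the other comparisons. Of the pathway genes that were called, 575 of 593 alternative values kept the call for stimulation in PKD2-null cells, 608 of 620 in wild-type cells and 67 of 108 between genotypes with peptide.

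Counts over all probe sets moved more. The main counts were 11170 for stimulation in PKD2-null cells, 13078 in wild-type cells, 531 between genotypes with peptide, 17 without peptide and 1 for the difference of the responses. Leaving out an array or a mouse gave 8117 to 11167 for stimulation in PKD2-null cells, 10397 to 13379 in wild-type cells, 69 to 1150 between genotypes with peptide, 3 to 64 without peptide and 0 to 13 for the difference of the responses. Between genotypes without peptide the count was 44 with the mouse as a random replicate block, 3 with only the 6 arrays compared, 32 after quantile normalization, 45 without dim probe sets, 57 with trended robust moderation, 32 for gene means and 11 without probe sets of x_at or s_at endings. With peptide it was 91 with only the 6 arrays compared and 326 for gene means. For the difference of the responses it was 43 with the mouse as a fixed replicate block, 0 with median centring, 0 without dim probe sets, 4 with trended robust moderation, 4 for gene means and 0 without x_at and s_at endings. Gene means gave 5733 in PKD2-null cells and 6468 in wild-type cells. All counts for gene means are over 18193 features and those without dim probe sets over 15676, against 45037 in the main fit. The 326 with peptide is thus a larger share of the features tested than the 531 of the main fit. Leaving out x_at and s_at endings also left fewer features. What else moved the counts was not tested. Signals near the bottom of the scale, and the 3 arrays per group, limit the precision.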
